A study of Mus musculus with 3 samples.

Results

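Cytosolic ribosomal protein genes encode the proteins of the ribosome that translates nuclear-encoded mRNA. They were taken as the gene symbols that begin with Rpl or Rps and a digit, together with Rplp0, Rplp1, Rplp2 and Rpsa, without symbols containing -ps and without the Rps6k kinases. Of 55357 features, 94 symbols met the symbol rule and 81 also reached 100 counts per 1000000 UMIs (CPM) in the summed UMIs of at least 1 library. These 81 genes comprise 45 genes of the large subunit, 3 of its stalk and 33 of the small subunit, and 4 of the 81 (Rps27l, Rpl22l1, Rpl36al and Rps4l) are paralogs of another gene on the list. The highest symbols left out were Rpl7l1, at 81.1 CPM, and Rps19bp1, at 64.3 CPM in its highest library; the lowest genes kept were Rps4l, at 117 CPM, and Rpl24, at 173 CPM. The rule compared no groups, but a gene near the minimum is kept by its highest library. Rps4l, at 99.2 CPM with LPS + Reg3g, 117 with LPS and 82.9 with PBS, was kept only through the LPS library.

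The cells came from lungs of wild-type C57BL/6 mice, whose age and sex the labels do not give. A gate for lung macrophages kept live leukocytes (CD45) that lacked Ly6G and carried F4/80 together with CD11b or CD11c. The LPS + Reg3g group received lipopolysaccharide (LPS, a bacterial cell wall component, 4 mg/kg) and Reg3g (6 µg) together, the LPS group received LPS at 4 mg/kg alone, and the PBS group received saline; each dose was 50 µL into the trachea and lungs were taken after 24 h. Each group is 1 library of cells pooled from 3 mice, so no comparison between groups has a replicate and none was tested; intervals below are 95% and cover counting error only. All groups went through the same dissociation and sort, and a difference between groups cannot be told apart from a difference between preparations.

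The 3 libraries held 10213 (LPS + Reg3g), 15015 (LPS) and 8475 (PBS) barcodes, of which 9281, 13015 and 7860 were kept as cells, with median depths of 5459, 4216 and 5923 UMIs per cell in the same order. Pairs of libraries shared 28 to 37 barcodes. Clusters were named from marker lists; 2 classes, alveolar-macrophage-like (4101, 5032 and 3549 cells) and monocyte-like (4188, 5989 and 2272 cells), held most cells. All 16 alveolar macrophage markers were detected in both classes in each library. They summed to 13995, 13887 and 19327 CPM in alveolar-macrophage-like cells, against 1285, 1247 and 1247 CPM in monocyte-like cells. The 10 classical monocyte markers, which share Chil3 with that list, summed to 8612, 8345 and 10670 CPM in monocyte-like cells. In alveolar-macrophage-like cells they summed to 5490, 5409 and 7442 CPM. The 10 nonclassical monocyte markers, which share Fabp4 with the alveolar macrophage list, summed to 1924, 1380 and 2674 CPM in monocyte-like cells. In alveolar-macrophage-like cells they summed to 1259, 1333 and 978 CPM, so this list hardly separated the 2 classes in the LPS library. The same lists named the clusters. Unnamed clusters, left out of the class comparisons because of high doublet scores or leading mitochondrial and ribosomal RNA, held 279, 260 and 150 cells with a share of 11.4%, 11.7% and 4.12% of UMIs in these genes. Mitochondrial share and depth are given below beside the results they move with.

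A ribosome has a small subunit, which holds the mRNA, and a large subunit, which joins amino acids; the stalk, made of Rplp0, Rplp1 and Rplp2 with Rpl12 at its base, recruits elongation factors. Most ribosomal protein mRNAs begin with a cytidine followed by a run of pyrimidines, the 5′ TOP element, through which mTORC1 and Larp1 control their translation, and their proteins are normally made in matched amounts. In macrophages, LPS is known to alter both mTORC1 activity and the translation of selected mRNAs. The transcript level alone, as measured here, does not give the rate of translation.

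Start-site sequences are shown for genes whose levels differed most between groups or classes, or that belong to a paralog pair described below. RefSeq promoter windows (GRCm38.p6) matched 60 of the 81 genes. Each line runs 5′ to 3′ on the transcribed strand from 40 bases before the annotated start to 20 bases after it; capitals mark a pyrimidine tract, that is a C followed by at least 5 more C or T, within 20 bases on either side of the start.
Rpl12 (chr2:32961672-32961731, plus strand): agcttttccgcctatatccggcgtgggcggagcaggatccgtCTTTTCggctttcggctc
Rplp0 (chr5:115559427-115559486, plus strand): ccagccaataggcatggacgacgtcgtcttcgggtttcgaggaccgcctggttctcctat
Rpsa (chr9:120127726-120127785, plus strand): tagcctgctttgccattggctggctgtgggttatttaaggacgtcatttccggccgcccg
Rps2 (chr17:24720023-24720082, plus strand): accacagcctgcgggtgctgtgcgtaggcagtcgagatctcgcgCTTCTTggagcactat
Rpl41 (chr10:128549149-128549208, minus strand): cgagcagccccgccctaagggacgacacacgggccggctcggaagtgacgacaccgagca
Rpl10 (chrX:74270776-74270835, plus strand): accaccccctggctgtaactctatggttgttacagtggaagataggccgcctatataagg
Rpl13a (chr7:45128726-45128785, minus strand): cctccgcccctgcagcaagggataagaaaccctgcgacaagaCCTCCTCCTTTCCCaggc
Rps27 (chr3:90213629-90213688, minus strand): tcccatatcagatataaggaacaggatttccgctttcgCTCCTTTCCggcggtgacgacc
Rps27l (chr9:66946046-66946105, plus strand): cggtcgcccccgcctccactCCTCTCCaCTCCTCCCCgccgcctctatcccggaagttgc
Rps6 (chr4:86857348-86857407, minus strand): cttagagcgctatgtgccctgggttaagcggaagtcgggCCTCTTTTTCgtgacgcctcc
Such a tract was found in 37 of the 60 windows (61.7%), against 29.4% of 27025 RefSeq mouse promoters. The motif CCGGAAG, the core of the ETS family's binding site, lay on either strand of the 300-base promoters of 24 of the 60 genes (40.0%), against 9.12% of all promoters. The letters TATAAA in the 50 bases before the start were found, on the transcribed strand, in 1 of the 60 (1.67%) and in 2.88% of all. Rpl12, Rps2 and Rpl41, all higher in LPS cells of both large classes, differ in the windows shown: Rpl12 and Rps2 hold a tract and Rpl41 does not. This depends on the RefSeq start. In GENCODE the Rpl12 gene (plus strand) begins at 32961559, the Rps2 gene (plus strand) at 24718116 and the Rpl41 gene (minus strand) at 128549305, all outside the windows shown. The GENCODE starts of Rpsa and Rps6 also lie outside their windows. A tract in such a window therefore does not show that the mRNA begins with it. Likewise, a window without a tract does not show that the mRNA lacks a 5′ TOP element. The motif CCGGAAG, read on the other strand, can share letters with a tract. A match of letters is a description and does not show use of the site.

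Over whole libraries their sum was 128963 CPM with LPS + Reg3g, 132677 CPM with LPS and 127071 CPM with PBS. The 322 symbols of their annotated pseudogenes summed to 379, 422 and 387 CPM in the same order, so few UMIs were assigned to those copies; the sources do not say how reads matching several copies were treated. UMIs were counted at 3′ ends, so levels are not scaled by transcript length. The highest gene was Rplp1, a stalk protein, at 5028 CPM with LPS + Reg3g, 5110 with LPS and 5476 with PBS. Other genes of high level were Rps14, Rpl23, Rplp2, Rpl41 and Rpl37a, each between 2278 and 4342 CPM in every library. The lowest were Rps4l, Rpl24, Rpl36al, Rpl13a and Rpl22l1, each between 82.9 and 255 CPM.

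The share of UMIs in these genes varied more between cell classes than between groups. In PBS cells the share ran from 10.7% in alveolar-macrophage-like cells and 11.8% in interstitial-macrophage-like cells, through 13.5% in migratory-dendritic-cell-like and 14.7% in monocyte-like cells, to 17.5% and 18.1% in type 2 and type 1 dendritic-cell-like cells, 21.7% in B-cell-like and 22.7% in T-or-NK-cell-like cells. T-or-NK-cell-like cells thus had a share 1.09 log2 units above that of alveolar-macrophage-like cells of the same library (interval 1.08 to 1.10), and the quartiles of the cells did not overlap, at 17.02% to 29.3% against 9.21% to 11.98%. In the LPS + Reg3g library the same difference was 0.59, and in the LPS library it was 0.44. Neutrophil-like cells had the lowest share among named classes of at least 50 cells, 8.74% with LPS + Reg3g and 10.5% with LPS, and only 12 such cells were in the PBS library. Classes with a high share were shallow as well as deep, with a median of 1645 UMIs in B-cell-like and 7570 UMIs in type 1 dendritic-cell-like cells of the PBS library.

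**Figure D1:**
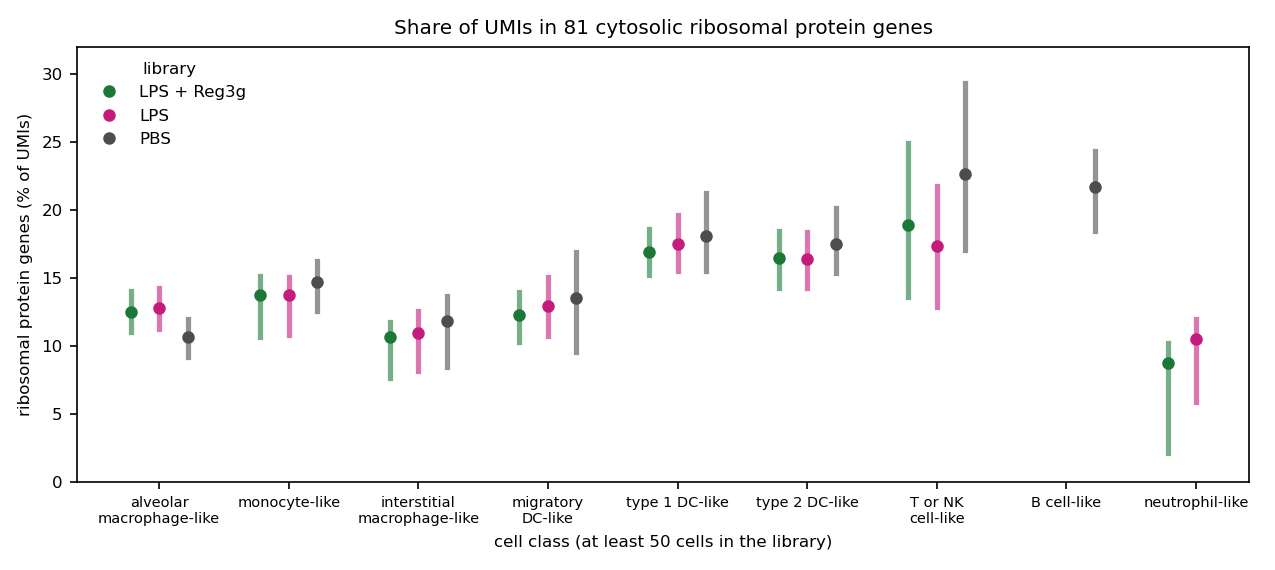
Share of UMIs in the 81 genes (percent) by cell class for LPS + Reg3g, LPS and PBS libraries; points are the share of all UMIs of the class and bars the quartiles over its cells. Alveolar-macrophage-like cells stand at 12.5%, 12.8% and 10.7%, and of the 7 classes drawn for all 3 libraries they are the one whose PBS point lies below both LPS points.

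In alveolar-macrophage-like cells, the resident macrophages of the air spaces, the share was 12.5% with LPS + Reg3g, 12.8% with LPS and 10.7% with PBS. LPS over PBS was 0.26 on the log2 scale (interval 0.26 to 0.27), a 1.20-fold higher share. Of the 81 genes, 74 were higher in LPS cells and 7 lower, with a median log2 ratio of 0.26. Over the 7840 genes with at least 10 CPM in 1 of these libraries, 34.9% were higher and the median was -0.25; among genes at 100 CPM or more, 45.3% were higher. At least 1.5-fold higher were 6 of the 81, against 10.7% of all genes, and none was 2-fold higher or lower. The share of all genes at 2-fold is not given here, so the latter does not set the 81 apart. With median-of-ratios scaling, which sets the middle of all genes to no change, the difference of the sum was 0.52, and over all kept cells of the libraries together it was 0.065 with 48 genes higher. Of ribosome components that the symbol rule leaves out, Rack1, a scaffold on the small subunit, stood at 0.32 and Fau, a fusion that yields a small subunit protein, at 0.061, both higher in LPS cells.

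The higher share in LPS cells stood beside fewer UMIs of all genes. LPS cells held a mean of 793 UMIs of these genes per cell, against 848 in PBS cells, and 6185 UMIs of all genes, against 7950; LPS + Reg3g cells held 971 of 7754. Within cells of 5000 to 10000 UMIs the median share was 12.7%, 12.9% and 10.8% for LPS + Reg3g, LPS and PBS, and above 10000 UMIs it was 12.3%, 12.6% and 10.5%, so both LPS libraries were above PBS at matched depth. Mitochondrial UMIs took a median of 0.484%, 0.378% and 0.720% of a cell in the same order of libraries; their part in the result was not tested. A list of 8 abundant genes, the ferritin genes Fth1 and Ftl1 with 6 genes known to respond to LPS, took 9.75% and 10.7% of UMIs in LPS + Reg3g and LPS cells, against 2.64% in PBS cells; with these genes taken out of the total, the share was 13.9%, 14.4% and 10.96%.

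Different clusters made up this class: cluster 1 held 1612 LPS + Reg3g and 2300 LPS cells, cluster 3 held 1036 and 1177, cluster 7 held 1002 and 998, and cluster 24 held 3305 of the PBS cells. The cycling cluster 19 held cells of all 3 libraries, 115, 100 and 216, and its share was 11.99% with LPS + Reg3g, 13.1% with LPS and 10.7% with PBS. In cluster 24 itself, the 55 LPS + Reg3g cells had 11.7%, the 70 LPS cells 12.2% and the 3305 PBS cells 10.7%. Both LPS libraries were thus above PBS within the clusters that all 3 libraries shared with at least 50 cells.

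The size of the difference varied between genes of this class. Rpl12, at the base of the stalk (chromosome 2, 32961559 to 32965345, plus strand, GRCm38), had 1712 CPM with LPS + Reg3g (interval 1697 to 1726), 1756 CPM with LPS (1742 to 1771) and 899 CPM with PBS (888 to 909.9). Its log2 ratio of LPS over PBS, 0.97, was the highest of the 81. Its partner Rplp0 (chromosome 5, 115559467 to 115563727, plus strand) had 1952, 2223 and 1375 CPM in the same order, a log2 ratio of 0.69. The other stalk proteins differed less, with log2 ratios of 0.30 for Rplp2 and 0.076 for Rplp1. Thus the genes of the stalk base were near the top of the order and the gene with the highest level near its lower end.

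Rpl24, a large subunit protein that contacts the small subunit, had 143 CPM with LPS + Reg3g, 177 with LPS and 99.4 with PBS, a log2 ratio of LPS over PBS of 0.84. Rpsa, which joins the small subunit late and is also known as the laminin receptor precursor, had 1421, 1506 and 999 CPM (0.59). Rps19, a small subunit protein mutated in human Diamond-Blackfan anaemia, had 855, 942 and 620.1 CPM (0.60), and Rpl36 had 1190.4, 1259.8 and 814 CPM (0.63). In each of these genes both LPS libraries were above PBS.

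Rpl10, which completes the large subunit late in its assembly, went the other way: it had 1648 CPM with LPS + Reg3g, 1437 with LPS and 1809 with PBS, a log2 ratio of LPS over PBS of -0.33. Rpl13a, a large subunit protein known in human myeloid cells for silencing inflammatory mRNAs after interferon gamma, had 184, 155 and 192 CPM (-0.31). Rpl7a (-0.14) and Rpl23a (-0.045) were the other genes with an interval below 0. Rpl15 stood at -0.026 with an interval of -0.064 to 0.013, and Rpl22 at -0.0098 with -0.031 to 0.012. The direction of some depends on the scaling: median-of-ratios scaling gives Rpl7a 0.12 and Rpl23a 0.21.

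**Figure D2:**
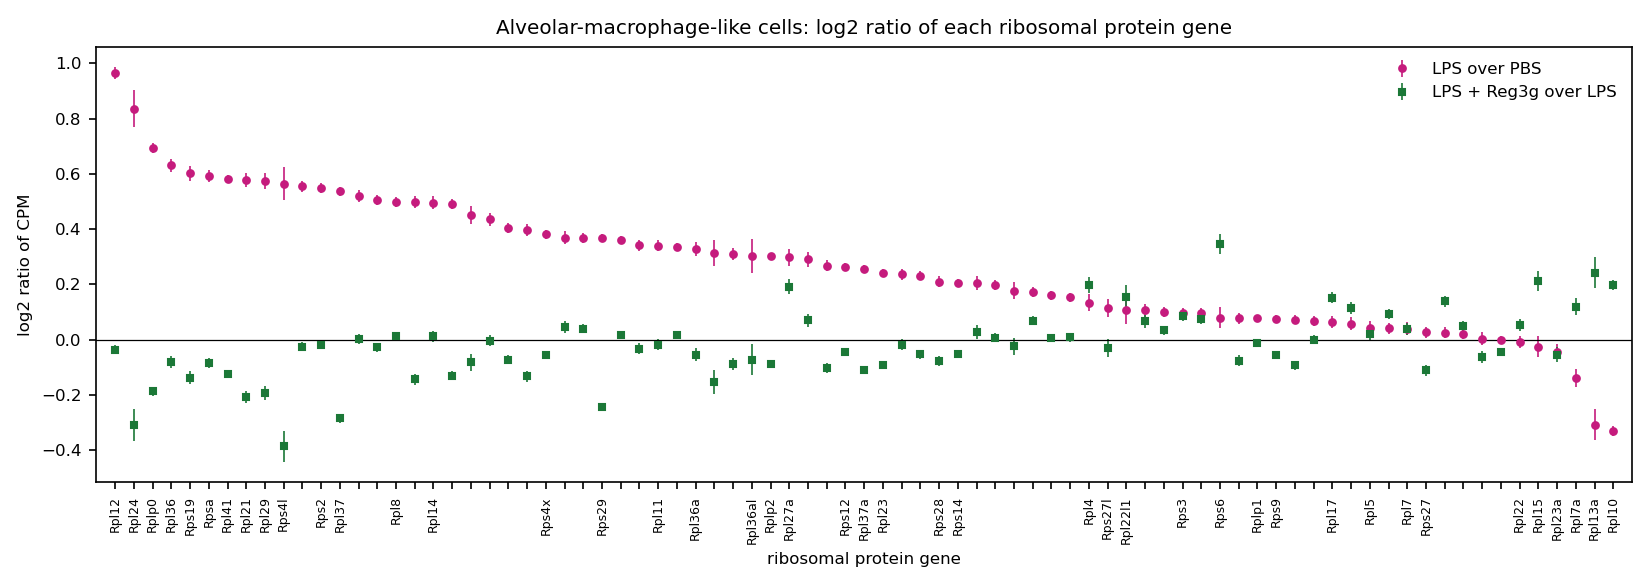
Log2 ratio of CPM for each of the 81 genes in alveolar-macrophage-like cells, LPS + Reg3g over LPS (squares) and LPS over PBS (circles), with 95% counting intervals, ordered by LPS over PBS; names are drawn for genes given in the text. Of the 81 genes, 74 circles lie above 0, with Rpl12 highest at 0.97 and Rpl10 lowest at -0.33, while the squares lie between -0.39 and 0.35. The lowest square is Rps4l, which passed the CPM minimum only through the LPS library. Both ratios contain the LPS library.

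LPS + Reg3g cells, which also received Reg3g, a secreted C-type lectin with antibacterial activity, differed less from LPS cells. LPS + Reg3g over LPS was -0.033 for the sum in alveolar-macrophage-like cells (interval -0.035 to -0.031); 33 genes were higher and 48 lower (22 higher with median-of-ratios scaling), where 59.2% of all 7160 genes measured and 48.8% of genes at 100 CPM or more were higher. No gene of the 81 was 1.5-fold apart, and without the share of all genes at that distance this does not set the 81 apart. The highest was Rps6, the small subunit protein phosphorylated by S6 kinases, with 471 CPM in LPS + Reg3g cells (interval 464 to 479), 371 CPM in LPS cells (364 to 377) and 351 CPM in PBS cells (344 to 358), a log2 ratio over LPS of 0.35. Rpl13a (0.24), Rpl15 (0.21), Rpl10 (0.20), Rpl4 (0.20) and Rpl27a (0.19) came next. The lowest were Rps4l (-0.39), Rpl24 (-0.31), Rpl37 (-0.29), Rps29 (-0.24), Rpl21 (-0.21) and Rpl29 (-0.19). Rps4l passed the CPM minimum only through the LPS library, so its low place is not independent of that selection. Rpl37 had 2061 CPM with LPS + Reg3g, 2513 CPM with LPS and 1732 CPM with PBS.

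In monocyte-like cells Rpl10 was highest. It had 1849 CPM with LPS + Reg3g, 1459 with LPS and 2203 with PBS, a log2 ratio over LPS of 0.34. Rps6 had 543, 434 and 480.3 CPM (0.32), followed by Rpl17 (0.21), Rpl15 (0.20), Rpl22l1 (0.19) and Rpl7 (0.16). Rps4l (-0.41), Rpl24 (-0.32), Rpl37 (-0.31), Rpl21 (-0.20), Rps29 (-0.20) and Rpl41 (-0.19) were lowest. The place of Rps4l is again not independent of its selection through the LPS library. The sum differed by -0.0057 (interval -0.0081 to -0.0034), by -0.0426 with median-of-ratios scaling and by -0.0020 with the removed share of doublets doubled, with 39 genes higher and 42 lower (26 higher with median-of-ratios scaling), where 57.8% of all genes measured and 52.8% of those at 100 CPM or more were higher. Over the 8 classes with enough cells, Rpl10, Rps3, Rpl17 and Rps6 were higher in LPS + Reg3g cells in every class, Rps6 by 0.22 to 0.67, and Rps14, Rpl41, Rps29, Rpl37, Rpl21, Rpl29 and Rpl24 were lower in every class, Rpl37 by log2 ratios of -0.52 to -0.071. These are 4 and 7 of the 81 genes, where 2.22% of all 5552 genes measured in each of the 8 classes were higher in all and 2.29% were lower in all. All classes of a group come from 1 library, so these 8 values per gene are not independent of each other.

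Coding length moved with this contrast. All genes on the list but Rps4l, 80 in number, had a coding transcript in GENCODE M21. Of these 80, the 27 shortest (138 to 399 coding bases) had a median log2 ratio of LPS + Reg3g over LPS of -0.050 in monocyte-like cells, with 7 higher. The 27 longest (582 to 1257 bases) had 0.035, with 21 higher. In alveolar-macrophage-like cells 7 of the 27 shortest and 16 of the 27 longest were higher, and the medians were -0.077 and 0.012. Spearman's rho with coding length over the 80 genes was 0.48 in monocyte-like and 0.33 in alveolar-macrophage-like cells, given as a description across genes that share their libraries. For LPS over PBS it was -0.0078 and 0.0002 in the same order. Mitochondrially encoded genes also moved with the LPS + Reg3g library: all 11 measured were higher than with LPS in both classes, with medians of 0.39 in alveolar-macrophage-like and 0.46 in monocyte-like cells, and the part of RNA quality in either pattern was not tested.

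Monocyte-like cells, recruited and patrolling blood monocytes and their lung progeny, did not have a higher sum after LPS. Their share was 13.7% with LPS + Reg3g, 13.8% with LPS and 14.7% with PBS, and LPS over PBS was -0.096 on the log2 scale (interval -0.099 to -0.093). In LPS cells 33 genes were higher and 48 lower, where 51.7% of 7661 genes measured and 53.1% of those at 100 CPM or more were higher. The spread was wider than in alveolar-macrophage-like cells: log2 ratios ran from -0.81 to 1.23, with 5 genes at or past 1.5-fold up (22.3% of all genes), 4 past 1.5-fold down (18.7%) and 2 past 2-fold up (11%). The 2 past 2-fold up were Rps4l, at 1.23, and Rps27l, at 1.00. Rps4l passed the CPM minimum only through the LPS library, so its place here is not independent of that selection. Fau (-0.49) and Rack1 (-0.13) were both lower in LPS cells.

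The gap to PBS was wider among shallow cells. From 1000 to 2000 UMIs the median share was 9.97%, 10.8% and 13.03% for LPS + Reg3g, LPS and PBS; from 2000 to 5000 UMIs it was 12.4%, 12.9% and 14.6%; from 5000 to 10000 UMIs it was 14.4%, 14.8% and 14.97%; and above 10000 UMIs it was 15.7%, 15.7% and 15.7%. The gap also differed between clusters. Cluster 0, led by nonclassical monocyte markers, held cells of all 3 libraries (255, 237 and 752), and its share was 12.2% with LPS + Reg3g, 12.4% with LPS and 13.98% with PBS. The median depth of these cells was 1845, 1462 and 2218 UMIs in the same order, and its part in the result was not tested. Classical monocyte markers led cluster 5, with 549 LPS + Reg3g and 672 LPS cells at 15.2% and 15.1%, and cluster 4, with 1497 PBS cells at 14.96%. Cluster 4 also held 44 LPS + Reg3g and 36 LPS cells, at 6.91% and 6.43%, with median depths of 1337 and 1278 UMIs against 3963 UMIs in its PBS cells. Their median mitochondrial share was 2.87% and 1.47%, against 0.498% in the PBS cells of the cluster. The part of depth and mitochondrial share in these low values was not tested. The best marker list of cluster 2 was classical monocyte, with a score of 0.466 against 0.443 for the next list. This cluster held 2330 LPS + Reg3g and 3230 LPS cells at 13.4% and 13.5%. Cluster 6, led by Arg1, Acod1 and the chemokine gene Ccl2, was almost wholly from the LPS groups, at 13.5% and 13.4%. Thus PBS cells had the highest share within cluster 0, and within cluster 4 against few, shallow LPS cells. Cluster 5 cells of both LPS groups stood slightly above the PBS cells of cluster 4. No cluster led by classical markers held more than 50 cells of both an LPS group and PBS.

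Rps27 and its paralog Rps27l, small subunit proteins of which Rps27l is known as a target of p53, stood on opposite sides of 0 in monocyte-like cells. Rps27 (chromosome 3, 90212522 to 90213651, minus strand) had 1498 CPM with LPS + Reg3g (interval 1480.5 to 1515), 1567 CPM with LPS (1551 to 1584) and 2748 CPM with PBS (2713 to 2783). Its log2 ratio of LPS over PBS, -0.81, was the lowest of the 81. Rps27l (chromosome 9, 66946086 to 66949516, plus strand) had 438, 496 and 248 CPM in the same order, a log2 ratio of 1.00. Both LPS libraries were below PBS for Rps27 and above it for Rps27l.

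Rps2, a small subunit protein at the mRNA entry, had 2477 CPM with LPS + Reg3g, 2478 with LPS and 1319 with PBS in monocyte-like cells, a log2 ratio of LPS over PBS of 0.91. Rpl12 (0.68), Rpl14 (0.63) and Rpl41 (0.53) followed, and in alveolar-macrophage-like cells the same 4 genes stood at 0.55 for Rps2, 0.97 for Rpl12, 0.50 for Rpl14 and 0.58 for Rpl41. Rps9, also at the mRNA entry, had 2557, 2557 and 3840.3 CPM in monocyte-like cells (-0.59). Rpl17, at the exit of the peptide tunnel, had 1348, 1165 and 1759.8 CPM (-0.60), Rpl7 had 1034, 925 and 1368 CPM (-0.57) and Rpl10 stood at -0.59; in alveolar-macrophage-like cells Rps9, Rpl17 and Rpl7 stood at 0.074, 0.064 and 0.038. Rpl23a stood at -0.49 in monocyte-like cells, so it and Rpl10 were among the 6 lowest genes of both classes.

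**Figure D3:**
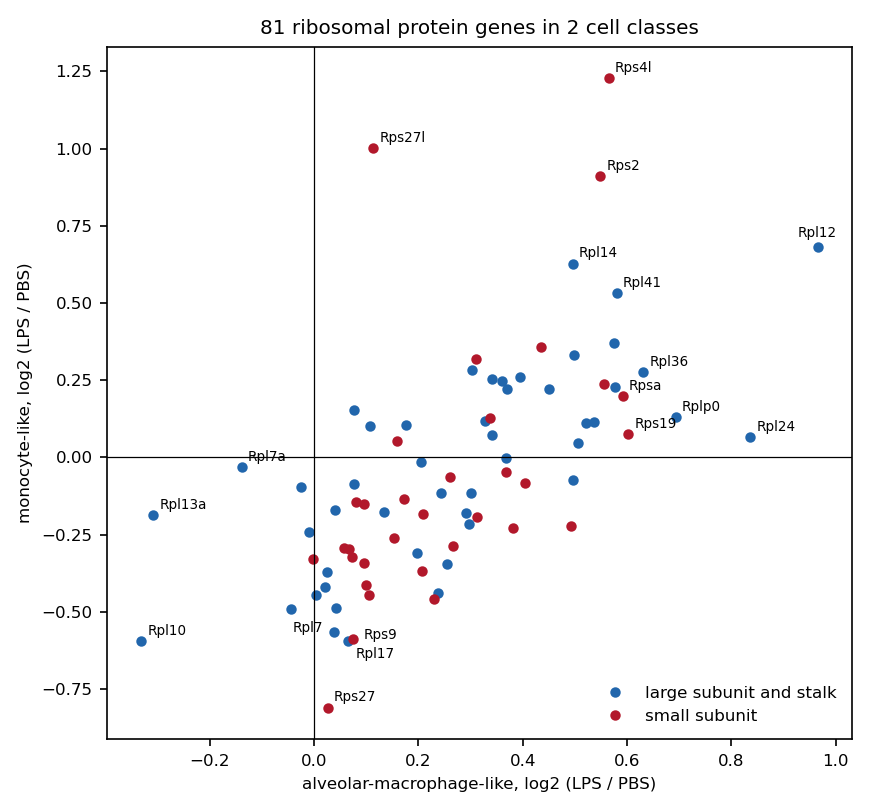
Log2 ratio of LPS over PBS for the 81 genes in alveolar-macrophage-like cells (horizontal) and monocyte-like cells (vertical), from the same 2 libraries; colours mark the subunit. Rpl12 and Rps2 lie high in both, Rpl10 low in both, Rps27l at 1.00 in monocyte-like and 0.11 in alveolar-macrophage-like cells, and Rps27 at -0.81 and 0.026.

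Large subunit genes took more of the sum after LPS than small subunit genes. The ratio of large subunit and stalk UMIs to small subunit UMIs was 1.23 with LPS + Reg3g, 1.22 with LPS and 1.19 with PBS in alveolar-macrophage-like cells, and 1.17, 1.17 and 1.06 in monocyte-like cells. In type 2 dendritic-cell-like cells it was 1.13, 1.12 and 1.07, and in T-or-NK-cell-like cells 1.14, 1.13 and 1.05. In each of the 7 classes with enough LPS and PBS cells the LPS value was above the PBS value, by the least in migratory-dendritic-cell-like cells (1.053, 1.042 and 1.040).

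Across the same 7 classes, 8 genes of the 81 were higher in LPS cells in every class (Rpl41, Rplp0, Rpl8, Rpl11, Rpl36, Rpl29, Rpl24 and Rps4l) and 5 were lower in every class (Rpl10, Rpl22, Rpl23a, Rpl15 and Rpl13a). Rps4l passed the CPM minimum only through the LPS library, so its place among the 8 is not independent of that selection. Of all 5821 genes with at least 10 CPM in either library in each of these classes, 16% were higher in all 7 and 12.6% lower in all 7, so one-sided members were no more common than one-sided genes in general. Rpl41, the smallest ribosomal protein, ran from 0.25 in migratory-dendritic-cell-like to 0.58 in alveolar-macrophage-like cells. Rpl10 ran from -0.59 in monocyte-like to -0.31 in T-or-NK-cell-like cells. The classes share their 2 libraries, and a gene-wise difference between preparations cannot be told apart from one between treatments.

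The paralogs Rps4l, Rps27l and Rpl36al varied most over the groups of class and library. As a share of the UMIs of the 81 genes, Rps4l had the largest spread over the 25 groups of class and library (SD 1.20 on the log2 scale), then Rps27l (1.00), Rpl36al (0.42), Rps27 (0.36), Rpsa (0.33) and Rpl12 (0.33), and Rps2 was also among the most variable (0.32). Rps27l ran from 0.0689% in T-or-NK-cell-like cells with PBS to 1.495% in migratory-dendritic-cell-like cells with LPS + Reg3g, a 21.7-fold range. Rps28 (0.076), Rps12 (0.088) and Rpl23 (0.091) were the steadiest, and Rps28 stayed between 1.09% and 1.36% in every group.

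Rps27l had its largest share of its pair in migratory-dendritic-cell-like cells, where it was 46.96% of the Rps27l and Rps27 UMIs with LPS + Reg3g (interval 45.01% to 48.9%), 42.7% with LPS (41.6% to 43.7%) and 30.9% with PBS (28.95% to 32.8%). In interstitial-macrophage-like cells, the macrophages of the lung tissue, it was 38.9%, 32.6% and 15.4%. In monocyte-like cells it was 22.6%, 24.05% and 8.26%. Within the nonclassical cluster 0 it was 9.15% with LPS + Reg3g, 8.48% with LPS and 5.31% with PBS, and among classical clusters 24.1% and 23.7% in cluster 5 of the LPS groups against 9.43% in the PBS cluster 4, so the difference was smaller in cluster 0. In alveolar-macrophage-like cells it was 28.9%, 27.8% and 26.6%, and in type 2 dendritic-cell-like cells 19.1%, 19.6% and 17.7%, so the groups lay closer together in these classes. T-or-NK-cell-like cells had 11.7%, 12.8% and 3.13%; their summed alveolar macrophage markers were 1453, 3702 and 574 CPM in the same order, and the part of carried-over RNA there was not tested.

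Rps4l, a paralog of Rps4x (chromosome 6, 148354656 to 148355598, plus strand), was highest in alveolar-macrophage-like cells among the named classes of each library. It had 140.4 CPM with LPS + Reg3g, 184 with LPS and 124 with PBS, 5.45%, 6.77% and 6.01% of its pair with Rps4x. In the unnamed cluster 17, led by mitochondrial and ribosomal RNA, it had 86.0, 59.8 and 54.3 CPM. There it was 11.3%, 6.44% and 8.88% of its pair, and the part of RNA quality was not tested. Rps4l has no coding transcript in GENCODE M21, so these levels do not show that a protein is made from it. Because Rps4l was kept only through the LPS library, its ratios with that library are not independent of the selection. In monocyte-like cells it had 36.8, 48.7 and 20.8 CPM, a log2 ratio of LPS over PBS of 1.23 (interval 1.00 to 1.46), and in T-or-NK-cell-like cells of the PBS library 19.1 CPM from 6 UMIs. Rpl36al was 23.4%, 24.7% and 22.6% of its pair with Rpl36a in monocyte-like cells and 14.3%, 14.5% and 14.7% in alveolar-macrophage-like cells. Rpl22l1, whose partner Rpl22 is known to restrain it in mouse cells, was 17.1%, 15.4% and 12.6% of its pair in monocyte-like cells and 17.7%, 16.7% and 15.6% in alveolar-macrophage-like cells. The 2 copies of each pair share sequence, so the split of UMIs within a pair is uncertain to the extent that the counting could not separate them.

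**Figure D4:**
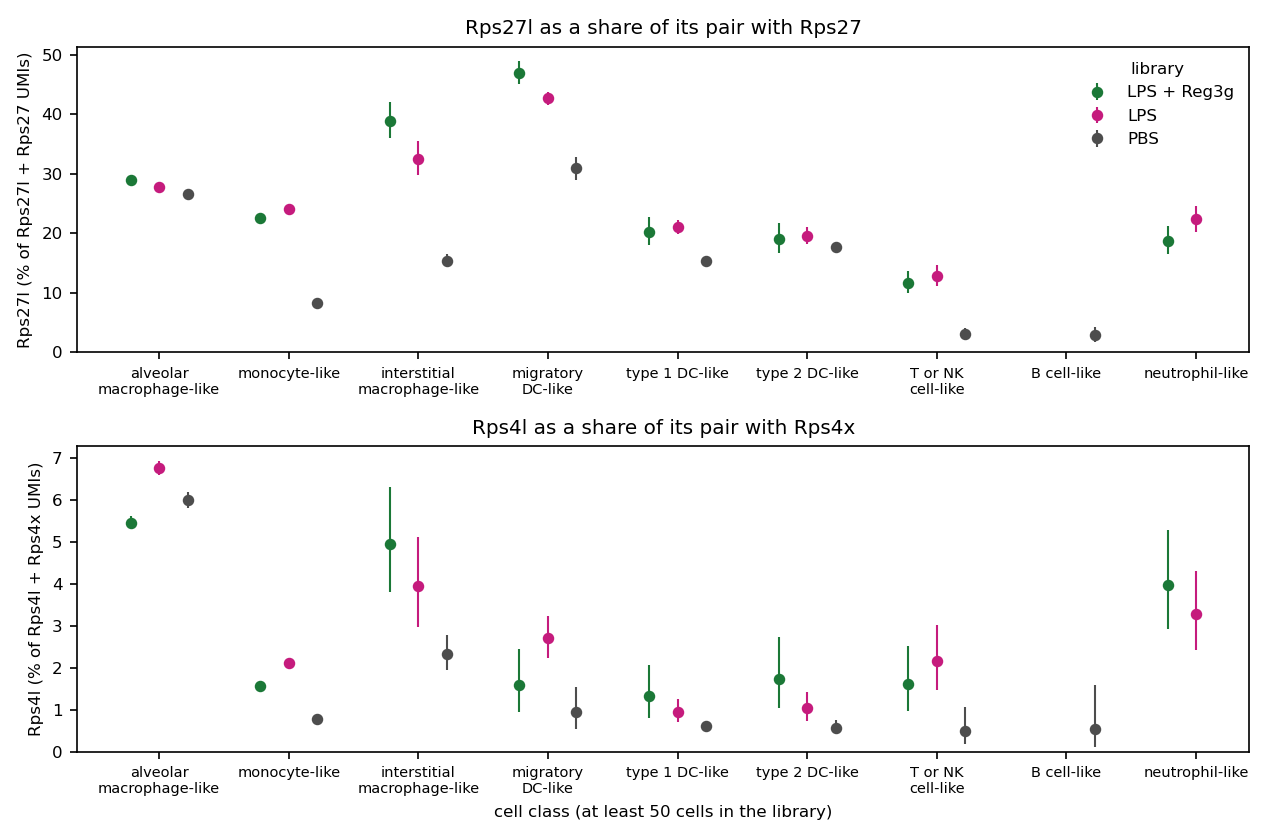
Rps27l (top) and Rps4l (bottom) as a percent of the UMIs of their pairs with Rps27 and Rps4x, by class for LPS + Reg3g, LPS and PBS libraries, with exact 95% counting intervals. Rps27l stands highest in migratory-dendritic-cell-like cells (46.96%, 42.7% and 30.9%) and Rps4l in alveolar-macrophage-like cells (5.45%, 6.77% and 6.01%).

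Interstitial-macrophage-like cells (136 with LPS + Reg3g, 174 with LPS and 484 with PBS) had a share of 10.6%, 10.9% and 11.8% in the same order. Cluster 10 held 132, 169 and 41 of them and cluster 23 held 4, 5 and 443, so the LPS groups and PBS are compared across different clusters. Rps27l had 650 CPM with LPS + Reg3g, 509.6 with LPS and 306 with PBS, the highest log2 ratio of LPS over PBS in the class at 0.73 (interval 0.54 to 0.92). Rplp0 had 1354, 1674 and 1183 CPM (0.50). Rps27 was lowest, with 1019.6, 1056 and 1683 CPM (-0.67), then Rpl23a (-0.62) and Rpl10 (-0.59). Rps27 and Rps27l thus lay at opposite ends in this class as in monocyte-like cells.

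Rps6 was the gene with the highest log2 ratio of LPS + Reg3g over LPS in interstitial-macrophage-like (0.67), migratory-dendritic-cell-like (0.28), type 1 dendritic-cell-like (0.59), T-or-NK-cell-like (0.47) and neutrophil-like cells (0.22). In interstitial-macrophage-like cells it had 540.1 CPM with LPS + Reg3g, 339 with LPS and 405 with PBS, from 339, 231 and 861 UMIs. In type 1 dendritic-cell-like cells it had 762 CPM with LPS + Reg3g, 505 with LPS and 677 with PBS, so the LPS library was the lowest of the 3 in both classes. In T-or-NK-cell-like cells it had 667, 482 and 736 CPM.

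Rpl5, a large subunit protein that binds the 5S ribosomal RNA, was lowest for LPS over PBS in 3 classes. It had 937 CPM with LPS against 1369 CPM with PBS in type 1 dendritic-cell-like cells (-0.55), 804 against 1232 CPM in type 2 dendritic-cell-like cells (-0.62) and 971 against 1829.6 CPM in T-or-NK-cell-like cells (-0.91). In migratory-dendritic-cell-like cells it had 634 against 934 CPM (-0.56), and Rpl4, with 404 against 637 CPM (-0.66), was lower still.

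Dendritic-cell-like and T-or-NK-cell-like cells had a lower sum after LPS. In migratory-dendritic-cell-like cells the share was 12.3% with LPS + Reg3g, 12.9% with LPS and 13.5% with PBS; 53 of the 81 genes were lower in LPS than in PBS cells (46.9% of all genes measured in the class were) and 62 were lower with LPS + Reg3g than with LPS (50.9% of all genes measured). In type 1 dendritic-cell-like cells, which cross-present antigen, it was 16.9%, 17.5% and 18.1%, with 49 genes lower in LPS than in PBS cells (51.8% of all genes measured). The order held in cluster 15 of this class (17.5%, 18.02% and 19.2%) but not in cluster 18 (15.2%, 15.7% and 14.7%, from 13, 61 and 132 cells). The summed migratory dendritic cell markers in the class were 2646, 3381 and 1255 CPM, and their part in the result was not tested. Type 2 dendritic-cell-like cells had 16.5%, 16.4% and 17.5%. With no doublets removed LPS and PBS were nearer, at 16.3% and 16.5%, and with ribosomal protein genes among the clustering genes they were farther apart, at 16.5% and 18.4%. In these cells the summed type 2 dendritic cell markers were 719, 937 and 2326 CPM and the classical monocyte markers 5084, 5753 and 2605 CPM with LPS + Reg3g, LPS and PBS; their part in the result was not tested. T-or-NK-cell-like cells had 18.9%, 17.4% and 22.7%, with 69 genes lower in LPS than in PBS cells (47.8% of all genes measured) and 63 higher with LPS + Reg3g than with LPS (49% of all genes measured). This class holds 92, 154 and 98 cells, and the alveolar macrophage marker sum given above was highest in its LPS library, where the share was lowest; the part of these markers in the result was not tested.

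Neutrophil-like cells had 8.74% with LPS + Reg3g and 10.5% with LPS, a log2 ratio of -0.27 (interval -0.28 to -0.25), with 75 of the 81 genes lower (54.4% of all genes measured). The median cell differed more, at 5.12% against 9.83%. With the stricter cell filter the shares were 10.1% with LPS + Reg3g and 11.2% with LPS, and with the removed share of doublets doubled they were 7.02% and 9.81%. The summed neutrophil markers were 49833 CPM with LPS + Reg3g and 18501 CPM with LPS in these 166 and 200 cells, all 11 detected in both; their part in the result was not tested. The sort excluded Ly6G-positive cells, so these cells are not a sample of lung neutrophils.

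Gene lists of ribosome production and translation were set beside the 81 genes. For LPS over PBS, 51.7% of all genes measured were higher in monocyte-like cells, 11% at least 2-fold, and 34.9% were higher in alveolar-macrophage-like cells. For LPS + Reg3g over LPS, 57.8% and 59.2% of all genes measured were higher in the same order of classes. Ribosome biogenesis and RNA polymerase I genes, which make and process ribosomal RNA, were mostly higher in LPS than in PBS cells in both classes. In monocyte-like cells 32 of 34 measured were higher and 13 at least 2-fold, with a median log2 ratio of 0.90. In alveolar-macrophage-like cells 32 of 35 were higher, with a median of 0.49. In monocyte-like cells Nle1, an assembly factor of the large subunit, had 12.1 CPM with LPS and 2.35 CPM with PBS, and Gar1, of the pseudouridylation complex, had 46.2 and 12.8 CPM. Rrs1, another assembly factor of the large subunit, led in alveolar-macrophage-like cells with 97.3 CPM with LPS and 32.4 CPM with PBS. Myc, a driver of ribosome production, had 20.3 and 25.7 CPM there. LPS + Reg3g over LPS was -0.18 by median in monocyte-like cells, with 28 of 34 lower, and -0.038 in alveolar-macrophage-like cells, with 22 of 35 lower.

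Mitochondrial ribosomal protein genes, nuclear genes for the separate ribosome inside mitochondria, stood at a median of 0.84 for LPS over PBS in monocyte-like cells, with 73 of 75 higher and 24 at least 2-fold, against -0.087 for the 81 cytosolic genes. In alveolar-macrophage-like cells the median was 0.16, with 55 of 76 higher. Mrps18b led in monocyte-like cells with 46.6 CPM with LPS and 14.5 CPM with PBS, followed by Mrpl12 with 135 and 42.7 CPM, and Mrpl52 had 379 and 116 CPM in alveolar-macrophage-like cells. Mrpl33 was the lowest of the list in both classes, with 177 CPM with LPS against 305 CPM with PBS in monocyte-like cells.

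Translation factors and other genes with a 5′ TOP element had a median log2 ratio of LPS over PBS of 0.070 in alveolar-macrophage-like cells (12 of 18 higher) and -0.14 in monocyte-like cells (8 of 18 higher). Eef1g, a subunit of elongation factor 1, was highest in both, with 251 CPM with LPS against 158 CPM with PBS in alveolar-macrophage-like cells and 280.2 against 158 CPM in monocyte-like cells. Pabpc1, the poly(A)-binding protein, had 273 CPM with LPS against 489 CPM with PBS in monocyte-like cells. Genes of mTORC1 and 5′ TOP control had medians of 0.0995 and 0.12 in alveolar-macrophage-like and monocyte-like cells; Eif4e, the cap-binding factor, had 142 CPM with LPS against 73.6 CPM with PBS in alveolar-macrophage-like cells, and Mtor had 29.2 against 14.7 CPM in monocyte-like cells. The 11 measured mitochondrially encoded genes were all lower with LPS in alveolar-macrophage-like cells, with a median of -1.04.

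**Figure D5:**
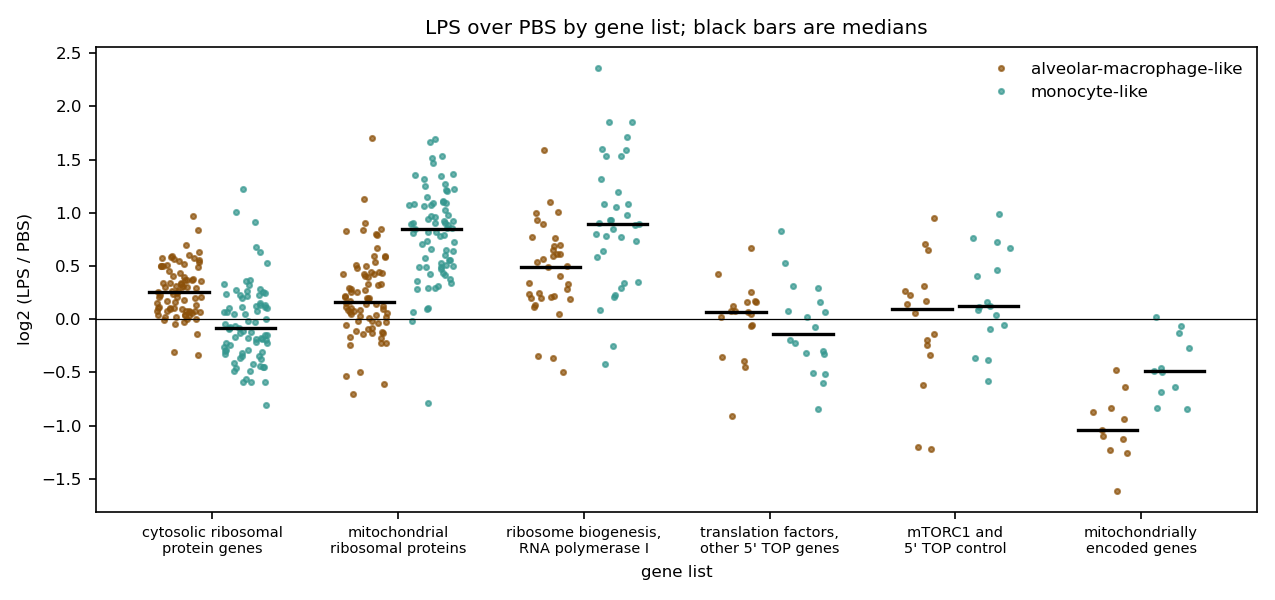
Log2 ratio of LPS over PBS for each measured gene of 6 lists in alveolar-macrophage-like (brown) and monocyte-like (teal) cells; black bars are medians. The cytosolic genes have medians of 0.26 and -0.087, and the mitochondrial ribosomal proteins 0.16 and 0.84, so the order of the 2 classes is reversed between the 2 kinds of ribosome.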

How the data were processed

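The 3 libraries are droplet-based and read transcripts from their 3′ ends. The authors deposited raw UMI counts for each gene in each cell barcode; Cell Ranger 9.0.1 made them, per the file headers, and bcl2fastq 5.0.1, Seurat 4.4.0 and mm10 are named in the submitters' processing notes. The gene annotation and the treatment of reads matching several copies are not given in the sources used here. Barcodes under 500 genes or 1000 UMIs, or above 15% mitochondrial UMIs, were left out, and the top Scrublet scores, 0.4% per 1000 barcodes, were removed as doublets. Cells of the 3 libraries were clustered together (scanpy 1.11.5 and igraph 0.11.9; 2000 variable genes without ribosomal protein genes, 30 components rounded to hundredths, a graph weighted by shared members of 15 nearest neighbours, Leiden resolution 1) and named X-like from marker lists; clusters with under 3 markers, with high doublet scores, or led by mitochondrial or ribosomal RNA or by another class's markers stayed unnamed, and the rule for scoring names was set, and the graph changed so that any processor gives the same clusters, after clusters had been seen. Counts were summed by class and library and given as CPM of the class total. Log2 ratios carry exact conditional binomial intervals, levels exact Poisson intervals and pair shares exact Clopper-Pearson intervals, all 95% and all for counting error only. Classes needed 50 cells in a library, and genes 10 CPM in 1 of the 2 libraries compared. The intervals were tested on simulated Poisson counts only. These hold no variation between cells, mice or preparations, so the simulation does not bear on such variation. With 1 library per group no test was made. Genes named in the text are the 8 highest and 5 lowest by level, the 6 highest and 6 lowest ratios of each comparison in both large classes, the 8 most variable, paralogs and their partners, the stalk genes, Rpsa, Rps27a, Rps6, Rack1 and Fau, and leading genes of the companion lists; some genes that this rule names are not reported here; genes alike in direction over classes, Rpl5, Rps28, Rps12, Rpl23, Rps3, Rpl8, Rpl11, Rps14, Myc, Mtor, Eif4e and Pabpc1 were named after their values were seen. Depth bins, shares without abundant genes, pair shares by cluster and genes grouped by coding length were added after the data were seen. Members and lists were chosen with earlier results of these data known. Positions are from GENCODE M21 (GRCm38) and promoter sequences from RefSeq.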

Additional observations from a re-analysis of the deposited data

Results flagged for a closer look

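The sum of the 81 genes differed between LPS and PBS in opposite directions in different classes, and the difference between classes was not tested. LPS over PBS was 0.26 on the log2 scale in alveolar-macrophage-like cells. It was -0.39 in T-or-NK-cell-like, -0.11 in interstitial-macrophage-like, -0.096 in monocyte-like, -0.090 in type 2 dendritic-cell-like, -0.062 in migratory-dendritic-cell-like and -0.049 in type 1 dendritic-cell-like cells. In interstitial-macrophage-like cells the shares were 10.9% with LPS and 11.8% with PBS, and with the stricter cell filter they were 11.2% and 11.5%, and without doublet removal 11.1% and 11.4%. Every class of a group comes from the same library.

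LPS + Reg3g over LPS was 0.12 in T-or-NK-cell-like cells and below 0 in 6 other classes, again with no test of the difference. It was -0.27 in neutrophil-like, -0.078 in migratory-dendritic-cell-like, -0.045 in type 1 dendritic-cell-like, -0.040 in interstitial-macrophage-like, -0.033 in alveolar-macrophage-like and -0.0057 in monocyte-like cells. In type 2 dendritic-cell-like cells it was 0.0035, with an interval of -0.010 to 0.017 that holds 0.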

How the results depend on the processing

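No paired analysis was possible because each group has 1 library, and for the same reason no replicate could be left out. Values are log2 ratios of the summed genes unless a gene is named, and where they moved the cause was not tested. For LPS over PBS in alveolar-macrophage-like cells, 0.2643, the value was 0.5182 with median-of-ratios and 0.4999 with trimmed-mean scaling; the median of all genes, -0.25 with the class total, is set near 0 by the first of these. It was 0.2594 without mitochondrially encoded genes, 0.2689 with no cell filter, 0.2691 with a stricter filter, 0.2670 without doublet removal, 0.2710 with the removed share of doublets doubled, 0.2582 and 0.2715 at Leiden resolutions 0.5 and 2, 0.2606 with cells thinned to 2000 UMIs, and 0.0654 over all cells together, where 48 genes were higher. At resolution 2, 1977 LPS + Reg3g, 3248 LPS and 236 PBS cells were unnamed. The alveolar-macrophage-like class then held 3242, 3713 and 3533 cells, so it lost cells mainly from the LPS libraries. LPS + Reg3g over LPS in this class, -0.0330, was -0.0683 and -0.0673 with these scalings, -0.0358 with no filter, -0.0369 with the stricter filter, -0.0359 and -0.0272 at resolutions 0.5 and 2, -0.0291 with cells weighted equally, -0.0277 thinned and -0.0427 over all cells.

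In monocyte-like cells LPS over PBS, -0.0957, was -0.1228 and -0.1243 with these scalings, -0.0919 with no filter, -0.0841 with the stricter filter, -0.0999 with doubled doublet removal, -0.1008 at resolution 2, -0.1429 with equal weights, -0.1170 thinned, and on the other side of 0, at 0.0654, over all cells together. LPS + Reg3g over LPS, -0.0057, was -0.0426 and -0.0433 with these scalings, -0.0024 with no filter, -0.0171 with the stricter filter, -0.0020 with doubled doublet removal, -0.0161 at resolution 2, -0.0125 with equal weights, -0.0211 thinned and -0.0427 over all cells. At resolution 2 the monocyte-like class held 3392 LPS + Reg3g, 4560 LPS and 2286 PBS cells.

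Of 1066 values of named genes, 16 changed direction where the interval of the main value excluded 0. Changes of sign in genes whose main interval held 0, such as Rpl15 and Rpl22 in alveolar-macrophage-like cells, were not counted. For LPS over PBS in alveolar-macrophage-like cells these were Rpl7a (0.1152 and 0.0969) and Rpl23a (0.2087 and 0.1905) under the 2 scalings, and Rps27 (-0.2885), Rplp1 (-0.1004) and Rps6 (-0.1174) over all cells. In monocyte-like cells they were Rpl22l1 (-0.0533) with equal weights and Rplp1 (-0.1004), Rplp2 (0.1012) and Rps27a (0.0762) over all cells. For LPS + Reg3g over LPS they were Rplp1 in alveolar-macrophage-like cells (0.0039 with equal weights and 0.0108 thinned) and Rplp0 in monocyte-like cells (-0.0018 and -0.0025 under the scalings and -0.1185 over all cells). Thinning left out 72, 197 and 36 alveolar-macrophage-like and 630, 1373 and 432 monocyte-like cells of the LPS + Reg3g, LPS and PBS libraries.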
